A study of Mus musculus with 10 samples.

Results

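Genes of trophic signalling to midbrain neurons were followed between the RNA of all cells and the RNA on tagged astrocyte ribosomes of the mouse ventral midbrain. These 10 genes were taken by symbol and comprise the neurotrophin Bdnf, the neurotrophin receptors Ntrk2 and Ntrk3, the receptors Gfra1, Gfra2 and Ret of the GDNF family, the factors Manf and Cdnf, and the heparin-binding factors Ptn and Mdk. All 10 members were among the 18464 genes of the table, and all 10 were among the 17672 genes tested. The libraries came from the region labelled SNpc/VTA, the substantia nigra pars compacta with the ventral tegmental area. All animals were naive and of the Aldh1l1-NuTRAP strain. Their ribosomes are tagged where the Aldh1l1 promoter is active, in brain mostly in astrocytes. The tag does not select cells beyond that promoter, and the labels give no age or sex. There were 5 libraries of input RNA, labelled as CNS cell types, and 5 of the pulled-down RNA, labelled as astrocytes, called the astrocyte fraction here. Each of the title numbers 88, 92, 976, 981 and 982 belongs to an input and to a fraction library, and values listed per library follow that order. Whether a number stands for an animal is not said in the labels, and p-values thus cover only the spread among these libraries, which may be technical.

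Trophic factors act on neurons through receptors at the cell surface. BDNF signals through the receptor tyrosine kinase TrkB, encoded by Ntrk2, and neurotrophin-3 through TrkC, encoded by Ntrk3. GDNF and neurturin bind the membrane-anchored co-receptors GFRA1 and GFRA2, which then engage the tyrosine kinase RET, a protein known in midbrain from dopamine neurons. MANF and CDNF are related proteins of the endoplasmic reticulum that can also be secreted. Pleiotrophin (Ptn) and midkine (Mdk) form a family of heparin-binding growth factors whose receptors include the phosphatase PTPRZ1 and the kinase ALK.

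The stretches of DNA before the transcription start are shown for Ntrk2, Ptn and Cdnf, the 3 members that rose and have a single start in the RefSeq promoter table. The table (build GRCm38.p6) held 5 of the 10 members, and it gave Bdnf 7 separate starts, whose transcripts are pooled in its gene count. Of each 250-base window, the part outside annotated exons is printed, 5′ to 3′ on the gene's strand, with the letters CCAAT (or ATTGG, their reverse complement) in capitals. The Ntrk2 stretch lies at chr13:58806319-58806568 on the plus strand, the Ptn stretch at chr6:36810221-36810429 on the minus strand and the Cdnf stretch at chr2:3512815-3513029 on the plus strand.
Ntrk2: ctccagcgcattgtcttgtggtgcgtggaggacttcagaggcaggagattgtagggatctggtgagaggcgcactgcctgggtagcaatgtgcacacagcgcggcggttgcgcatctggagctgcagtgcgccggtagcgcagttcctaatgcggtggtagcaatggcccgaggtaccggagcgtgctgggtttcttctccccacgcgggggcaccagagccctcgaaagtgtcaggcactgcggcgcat
Ptn: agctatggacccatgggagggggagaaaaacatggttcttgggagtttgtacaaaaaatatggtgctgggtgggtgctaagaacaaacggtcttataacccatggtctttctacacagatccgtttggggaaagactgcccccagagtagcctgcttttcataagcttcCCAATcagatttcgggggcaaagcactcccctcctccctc
Cdnf: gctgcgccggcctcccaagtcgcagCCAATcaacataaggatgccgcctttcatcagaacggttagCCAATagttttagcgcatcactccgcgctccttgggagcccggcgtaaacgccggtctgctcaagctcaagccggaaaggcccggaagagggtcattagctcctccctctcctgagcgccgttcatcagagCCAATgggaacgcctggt
CCAAT was found 0 times in the Ntrk2 stretch, 1 time in the Ptn stretch and 3 times in the Cdnf stretch, and on either strand it occurred in 33.8% of all 32851 windows of 250 bases in the table. None of these 3 windows held the GC box GGGCGG (in 32.7% of all windows), the TATA box TATAAA (12.4%) or the cyclic AMP response element TGACGTCA (1.55%). The matches describe the letters in these windows, and no relation to the measured levels was tested.

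Libraries differed in depth and in choroid plexus transcripts. The total of expected counts was 21812193 to 30878894 in the input and 24479136 to 26924406 in 4 fraction libraries, and only 3845554 in fraction library 92. Marker genes describe the make-up of the libraries. Their lists were chosen with earlier results of these data known, and Aldh1l1 itself is on the astrocyte list, so they are no independent check of the label. All 15 astrocyte markers were higher in the astrocyte fraction, with a summed level of 4882 to 5297 CPM in the input and 29155 to 42413 CPM in the fraction, where CPM is the usual count scaled by library size. All 12 microglia markers, all 12 of mature oligodendrocytes and all 14 pan-neuronal ones were lower. Of the other lists, 12 of 13 genes marking dopamine neurons fell and 1 rose, 6 of 8 for oligodendrocyte precursors fell and 2 rose, 5 of 10 endothelial ones fell and 0 rose, and 7 of 10 mural and fibroblast ones fell and 2 rose. For comparison, 33.1% of all tested genes were higher and 37.5% lower. The endothelial count of lower genes ran from 2 to 5 on leaving out 1 library and was 8 with scaling to total counts. Of 9 choroid plexus and ependymal markers 2 were higher and 0 lower, or 5 and 3 with the title number as a block. These last transcripts summed to 3289 and 728 CPM in the inputs 976 and 982 and to 12488 and 2683 CPM in their fractions, against 30.8 to 51.4 CPM in the other inputs and 137 to 166 CPM in the other fractions.

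Transcripts of 5 of the 10 members rose in the astrocyte fraction, those of 4 fell, and Ntrk3 was not called. Calls were made with edgeR's quasi-likelihood test at a Benjamini-Hochberg adjusted p under 0.05 over all tested genes, of which 33.1% were higher and 37.5% lower, 70.6% together. The members' counts stand against these shares. Scaled to total counts, the higher genes made up 34.0% of all called genes instead of 46.9%, and 3 members were higher instead of 5. The middle log2 fold change was 0.33 over the members and -0.06 over all tested genes. The groups did not overlap for Ntrk2, Ptn and Mdk, which were higher in every fraction library, nor for Bdnf, Ret, Gfra1 and Gfra2, which were lower in every one. Over all tested genes, 27.2% were higher and 31.1% lower without overlap. In bulk RNA, the share of a cell type in a library and its RNA per cell cannot be told apart. This holds for the pulled-down RNA as for the input.

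**Figure D1:**
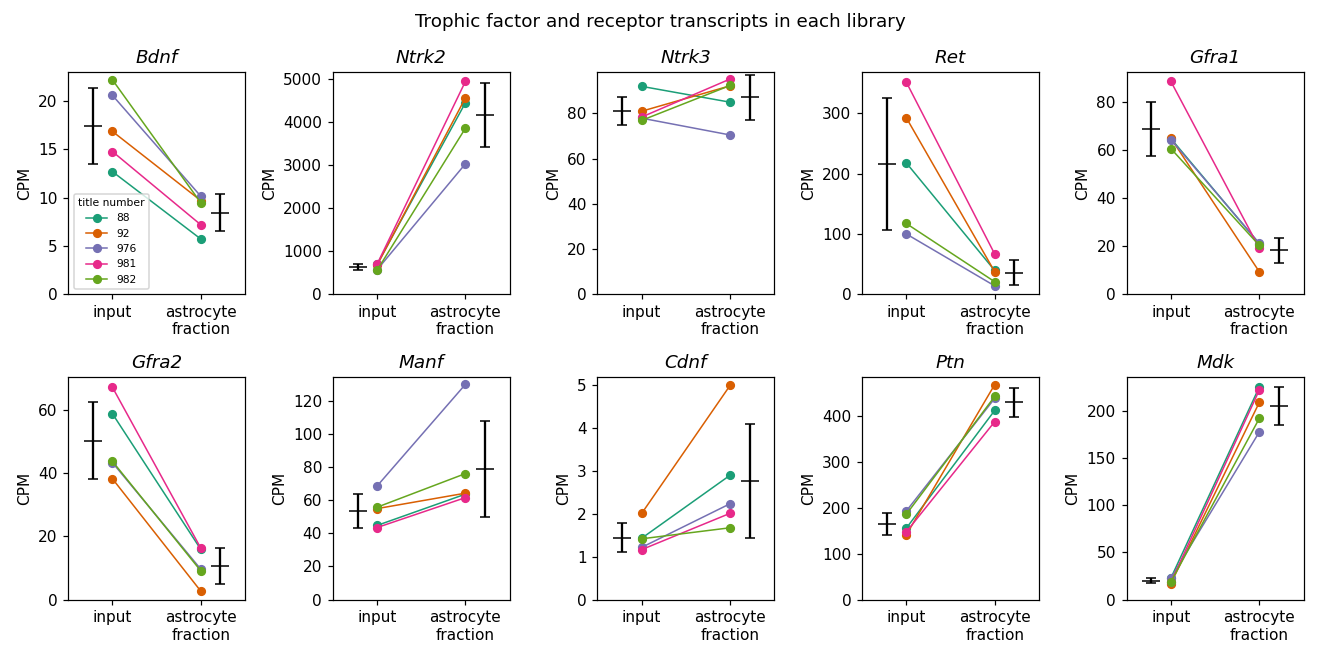
Level of each member in every library, in CPM on a linear axis from 0, with input on the left and astrocyte fraction on the right of each panel. Lines join libraries that share a title number, and black marks give the mean and SD of 5 libraries. Ntrk2, Ptn, Mdk, Manf and Cdnf rise along all 5 lines, and Bdnf, Ret, Gfra1 and Gfra2 fall along all 5. For Manf and Cdnf the groups still overlap.

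The ligand Bdnf and its receptor Ntrk2 went in opposite directions. Bdnf (ENSMUSG00000048482, mm10 chromosome 2, 109674700 to 109727007) measured 12.7, 16.8, 20.6, 14.8 and 22.2 CPM across the inputs and 5.71, 9.68, 10.1, 7.18 and 9.45 CPM across the fractions. Every fraction library lay below every input library, and the numbers 88 and 981 were lowest in both groups. The value of fraction library 92 rests on 33 counts, whose exact 95% Poisson interval of 6.67 to 13.6 CPM reaches above the lowest input. The mean fell from 17.4 ± 3.95 to 8.43 ± 1.90 CPM (n = 5, ± SD), with a fitted change of -1.05 ± 0.22 on the log2 scale (± SE, edgeR adjusted p = 0.000309). The fraction held 48.2% of the input level, the most among the 4 members that fell. The 14 pan-neuronal markers had a middle log2 fold change of -2.40, or 19.0% of the input, and their part in the level of Bdnf was not tested. Bdnf shares 14.4% of its exon bases with the antisense gene Gm45346, and no source used here gives the strand setting of the counting, which leaves part of its count uncertain.

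Ntrk2 (ENSMUSG00000055254, chromosome 13, 58806569 to 59133970) was the most abundant member per length in the fraction. It measured 694, 674, 569, 697 and 558 CPM across the inputs and 4446, 4560, 3029, 4941 and 3855 CPM across the fractions. The lowest fraction library, 976, was still above every input, and 976 and 982 were the 2 lowest numbers in both groups. The mean rose from 639 ± 69.3 to 4166 ± 746 CPM (n = 5, ± SD), with a fitted change of 2.71 ± 0.14 on the log2 scale (± SE, edgeR adjusted p = 1.69e-09), or 6.52-fold. The 15 astrocyte markers, with a middle log2 fold change of 3.06, also had their lowest sums in the fractions of 976 and 982. The annotation GENCODE M21 lists 7 coding transcripts of Ntrk2, with 821 codons in the longest and 466 in the shortest. Astrocytes are known for a truncated TrkB without the kinase domain, but gene counts pool these forms and do not tell them apart.

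Ntrk3 (ENSMUSG00000059146, chromosome 7, 78175959 to 78738012), the gene of the neurotrophin-3 receptor, was not called. It measured 91.9, 80.9, 77.8, 78.3 and 76.9 CPM across the inputs and 84.9, 92.1, 70.4, 95.1 and 92.3 CPM across the fractions. The groups overlapped, and the level was higher in the fraction in 3 numbers and lower in 2. The means were 81.2 ± 6.18 and 87.0 ± 10 CPM (n = 5, ± SD), with a fitted change of 0.10 ± 0.09 on the log2 scale (± SE, edgeR adjusted p = 0.351). Leaving out fraction library 976 gave 0.24 (adjusted p = 0.0177) and total count scaling gave -0.19 (adjusted p = 0.0603), so its direction depends on the scaling.

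The balance between members was compared inside each library, where a ratio does not depend on how libraries are scaled. The 7 ratios were tested with an exact two-sided permutation test over the 10 libraries, adjusted over the 7, and the smallest p that 5 against 5 libraries allow is 0.00794. The log2 ratio of Ntrk2 to Ntrk3 counts was 2.97 ± 0.13 in the input and 5.57 ± 0.15 in the fraction (SD, n = 5), a difference of 2.60 ± 0.09 (SE, exact permutation p = 0.00794, adjusted p = 0.0185). The groups did not overlap, with 2.86 to 3.15 in the input and 5.38 to 5.71 in the fraction. The log2 ratio of Bdnf to Ntrk2 fell from -5.22 ± 0.49 to -8.95 ± 0.56, a difference of -3.73 ± 0.33 (exact permutation p = 0.00794, adjusted p = 0.0185). With the libraries paired by number, a sign-flip permutation, whose smallest p is 0.0625, gave these 2 ratios and Mdk/Ptn an adjusted p of 0.109. Relative to its receptor transcript, the ligand transcript was 13.3-fold lower in the fraction. Bdnf was lower and Ntrk2 higher in every fraction library. The separation of the Bdnf/Ntrk2 ratio was thus fixed beforehand, and its p-value adds no support to those 2 calls.

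**Figure D2:**
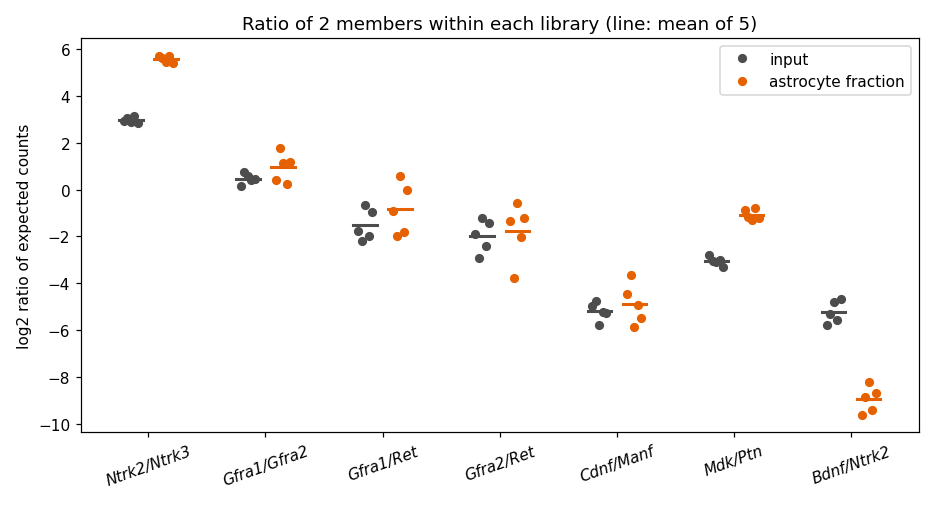
Log2 ratio of the expected counts of 2 members within each library, with 5 input libraries in grey and 5 astrocyte fraction libraries in orange for each pair and the mean as a line. The groups separate for Ntrk2/Ntrk3, Mdk/Ptn and Bdnf/Ntrk2 and overlap for the other 4 ratios.

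Of 18 measured genes of the neurotrophin list, 7 rose, 7 fell and 4 did not pass the test, against 33.1% and 37.5% of all genes, with a middle log2 fold change of -0.01. Ntf3, the neurotrophin-3 gene, fell by 2.46 on the log2 scale (edgeR adjusted p = 0.000347), with 0 to 12 counts in each fraction library. Among the sortilin-type receptors, some of which bind neurotrophin precursors, Sorcs3 (-2.65), Sorcs1 (-2.73) and Sort1 (-0.75) were lower. Sorl1 (0.81) was higher, and Sorcs2 rose from 63.1 ± 14.7 to 205 ± 45.4 CPM (log2 fold change 1.69 ± 0.21, edgeR adjusted p = 5.57e-06). Plat, the gene of tissue plasminogen activator, which takes part in the cleavage of proBDNF through plasmin, rose by a log2 fold change of 1.51 ± 0.19 (adjusted p = 4.45e-06).

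All 3 members that encode receptors of the GDNF family fell. Ret (ENSMUSG00000030110, chromosome 6, 118151745 to 118197718), the signalling kinase, measured 218, 293, 100, 352 and 118 CPM across the inputs and 39.6, 37.6, 14.0, 66.9 and 20.9 CPM across the fractions. The numbers 976 and 982 were lowest and 981 highest in both groups, and the highest fraction was below the lowest input. The mean fell from 216 ± 109 to 35.8 ± 20.5 CPM (n = 5, ± SD), with a fitted change of -2.59 ± 0.53 on the log2 scale (± SE, edgeR adjusted p = 0.00134), which leaves 16.6% of the input level. Gfra2 held 22.6% and Gfra1 27.5% of the input level, beside 19.0% at the middle value of the 14 pan-neuronal markers. The part of neurons in these levels was not tested. Ret had the widest spread of all members among the inputs, with an SD of 50.4% of its mean, against 7.61% to 24.2% for the others.

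Ret had the same lowest and highest numbers as the summed level of most dopamine neuron markers. Of 13 markers, 12 fell, among them Th, the gene of the rate-limiting enzyme of dopamine synthesis, while Aldh1a1, an aldehyde dehydrogenase gene, rose from 297 ± 77.9 to 1778 ± 181 CPM. The sum of the 12 that fell, a set formed after their values were seen, was 783, 1126, 407, 1660 and 401 CPM across the inputs and 144, 174, 70.7, 273 and 81.5 CPM across the fractions. In both groups 976 and 982 had the lowest sums and 981 the highest, as for Ret. With Aldh1a1 included the sum was 1066, 1466, 635, 2069 and 627 CPM across the inputs and 1837, 2096, 1691, 1910 and 2102 CPM across the fractions, where it did not follow Ret. The 12 genes were chosen by their fall, so that fall is no independent comparison for Ret. Numbers 976 and 982 also held the most choroid plexus and ependymal transcripts. These summed to 3289 and 728 CPM in their inputs and to 12488 and 2683 CPM in their fractions. Whether this or another difference between the numbers bears on Ret was not tested.

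**Figure D3:**
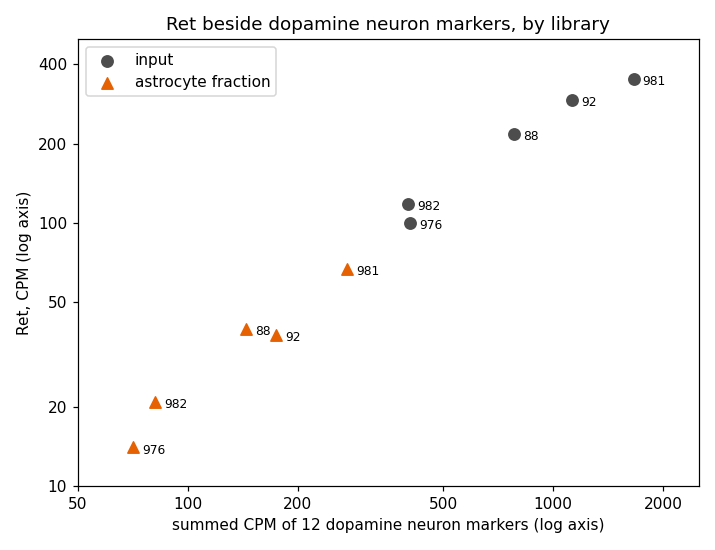
Ret level against the summed level of the 12 dopamine neuron markers that fell (Aldh1a1 left out), both in CPM on log axes, with 1 point per library labelled by its title number. Inputs (grey circles) run from 100 to 352 CPM of Ret and fractions (orange triangles) from 14.0 to 66.9 CPM, with 976 and 982 at the low end and 981 at the high end of both groups.

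Gfra1 (ENSMUSG00000025089, chromosome 19, 58235604 to 58455909), the co-receptor that binds GDNF, measured 64.7, 64.9, 64.3, 88.5 and 60.6 CPM across the inputs and 21.1, 9.39, 21.2, 19.2 and 20.3 CPM across the fractions. The input 981 stood above and the fraction library 92 below the rest of its group. The mean fell from 68.6 ± 11.3 to 18.2 ± 5.0 CPM (n = 5, ± SD), with a fitted change of -1.86 ± 0.24 on the log2 scale (± SE, edgeR adjusted p = 8.6e-07). Library 92 held 32 counts of Gfra1, whose exact 95% Poisson interval of 6.42 to 13.3 CPM covers counting error only and stays below the other fractions. Without that library the log2 fold change was -1.73. An antisense gene, Gm16277, shares 7.6% of the exon bases of Gfra1.

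Gfra2 (ENSMUSG00000022103, chromosome 14, 70890120 to 70979838), the co-receptor that binds neurturin, measured 58.7, 38.2, 43.3, 67.1 and 43.7 CPM across the inputs and 15.8, 2.64, 9.57, 16.2 and 9.04 CPM across the fractions. The numbers 88 and 981 were highest and 92 lowest in both groups. The mean fell from 50.2 ± 12.2 to 10.7 ± 5.60 CPM (n = 5, ± SD), with a fitted change of -2.15 ± 0.49 on the log2 scale (± SE, edgeR adjusted p = 0.000143). Its value in the fraction library 92 rests on 9 counts, and without that library the log2 fold change was -1.97. The log2 ratios Gfra1/Gfra2 (difference 0.48 ± 0.30, exact permutation p = 0.135), Gfra1/Ret (0.67 ± 0.58, exact permutation p = 0.278) and Gfra2/Ret (0.19 ± 0.63, exact permutation p = 0.770) did not differ between fraction and input beyond the spread of the libraries (adjusted p = 0.236, 0.389 and 0.770). Such p-values do not show that the ratios were equal.

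The measured ligand genes of the family, Nrtn, Gdnf and Artn, were scarce and lower in the fraction. Pspn, the persephin gene, was not among the measured genes. Nrtn, the neurturin gene, measured 7.55 to 9.95 CPM across the inputs and 2.12, 0.880, 7.62, 1.37 and 3.57 CPM across the fractions (log2 fold change -1.37 ± 0.53, edgeR adjusted p = 0.0111). The fraction library 976 reached the lowest input, and the value of library 92 rests on 3 counts. Gdnf was at 0.442 to 1.61 CPM in the inputs, from 12 to 53 counts, and held 0, 1, 8, 5 and 4 counts in the same fractions (log2 fold change -2.01 ± 0.54, adjusted p = 0.00293). A count of 0 in the fraction library 88 allows up to 0.122 CPM by the limit of 3 counts. Artn, the artemin gene, had 14 to 21 counts in the inputs and 0 to 5 in the fractions (-1.43 ± 0.66, adjusted p = 0.0217), and its call was lost when fraction library 88 was left out (adjusted p = 0.0583), on leaving out numbers 976 and 982 (0.138), with DESeq2 (0.0718) and with the authors' log2 values (0.0584).

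Of 13 measured genes of the GDNF family list, 4 rose, 7 fell and 2 did not pass the test, against 33.1% higher and 37.5% lower over all tested genes, with a middle log2 fold change of -1.25. Gfra4, the co-receptor gene for persephin, fell from 30.4 ± 1.17 to 5.89 ± 0.901 CPM (log2 fold change -2.37 ± 0.10, edgeR adjusted p = 1.48e-09). Grb10 (-2.28), Dok4 (-1.86) and Dok6 (-1.25), genes of adaptor proteins of receptor tyrosine kinases, were lower too. Gas1, whose product resembles the GFRA co-receptors and can bind RET, rose from 8.32 ± 1.45 to 58.7 ± 5.04 CPM (2.81 ± 0.12, adjusted p = 6.23e-10). Sdc3, the gene of syndecan-3, a heparan sulfate proteoglycan that binds GDNF and pleiotrophin, rose from 372 ± 22.1 to 1590 ± 203 CPM (2.10 ± 0.09, adjusted p = 8.05e-10).

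Manf and Cdnf were called higher by small margins, and both calls were lost when certain single libraries were left out. The log2 fold change was then 0.51 to 0.58 for Manf and 0.74 to 0.80 for Cdnf. Manf (ENSMUSG00000032575, chromosome 9, 106838312 to 106891979) measured 44.8, 54.9, 68.6, 43.5 and 55.8 CPM across the inputs and 63.7, 64.3, 130.0, 61.6 and 76.1 CPM across the fractions. The fraction was higher in 5 of 5 numbers, but the groups overlapped because the input 976 exceeded the fractions 88, 92 and 981. The mean rose from 53.5 ± 10.1 to 79.1 ± 29.0 CPM (n = 5, ± SD), with a fitted change of 0.57 ± 0.23 on the log2 scale (± SE, edgeR adjusted p = 0.0314). Number 976 was highest in both groups, and it also held the most choroid plexus transcripts. Leaving out fraction library 976 gave 0.39 (adjusted p = 0.0192), and leaving out both libraries of 976 and of 982 gave 0.51 (adjusted p = 0.00324). The call was lost without the input 88 (0.0712), 92 (0.0545) or 981 (0.0723), with total count scaling (log2 fold change 0.29, adjusted p = 0.263), with the authors' log2 values (0.0654) and with only genes of at least 5 CPM on average (0.0601). With the title number as a block it was 0.53 (adjusted p = 0.000233). Manf shares 8.85% of its exon bases with genes on the opposite strand.

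Cdnf (ENSMUSG00000039496, chromosome 2, 3513030 to 3526376), the scarcest member, measured 1.43, 2.01, 1.22, 1.16 and 1.42 CPM across the inputs and 2.90, 4.99, 2.23, 2.01 and 1.67 CPM across the fractions. Number 92 was highest in both groups, and its fraction value rests on 17 counts with an exact 95% Poisson interval of 2.91 to 7.99 CPM. The level was higher in the fraction in 5 of 5 numbers, with overlap between the groups. The mean rose from 1.45 ± 0.334 to 2.76 ± 1.32 CPM (n = 5, ± SD), with a fitted change of 0.80 ± 0.30 on the log2 scale (± SE, edgeR adjusted p = 0.0272). Leaving out fraction library 88 ended that call (adjusted p = 0.0578), as did leaving out the input 88 (0.0504), 976 (0.0584) or 981 (0.0607), and with total count scaling (0.53, adjusted p = 0.119). The log2 ratio of Cdnf to Manf was -5.20 ± 0.39 in the input and -4.87 ± 0.87 in the fraction, a difference of 0.33 ± 0.43 (exact permutation p = 0.476, adjusted p = 0.556), within the spread of the libraries.

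The list for MANF and CDNF joined reported partners with genes of stress in the endoplasmic reticulum. Of its 15 measured genes, 7 rose, 6 fell and 2 did not pass the test, against 33.1% higher and 37.5% lower over all tested genes. The middle log2 fold change of the list was 0.11, with a range from -0.96 to 1.01. The KDEL receptor genes Kdelr1 (1.01) and Kdelr2 (0.81), whose products return proteins to the reticulum, the chaperone gene Dnajb9 (0.84) and the stress sensor gene Ern1 (0.60) were higher. Creld1 (-0.96) and Nptn (-0.70), which encodes neuroplastin, a reported receptor for MANF, were lower. Of the rest, Hyou1 (-0.61), Ddit3 (-0.47), Xbp1 (-0.44) and Atf6 (-0.40) were lower, and Creld2 (0.76), Pdia4 (0.58) and Hsp90b1 (0.29) were higher. Genes of stress in the reticulum thus went in both directions. Nptn fell from 424 ± 36.0 to 261 ± 24.7 CPM (SD, n = 5, edgeR adjusted p = 6.58e-06). Hspa5, the gene of the chaperone BiP that binds MANF, was at 370 ± 36.1 and 400 ± 140 CPM, with no call at 0.11 ± 0.21 on the log2 scale (adjusted p = 0.611). Its direction turned on leaving out fraction library 976 (-0.05) and under total count scaling (-0.16). Scaled to total counts, 4 genes of this list were higher.

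Both heparin-binding factors rose, midkine more than pleiotrophin. Mdk (ENSMUSG00000027239, chromosome 2, 91929805 to 91932297) measured 22.6, 17.0, 22.6, 18.3 and 18.8 CPM across the inputs and 225, 209, 177, 222 and 192 CPM across the fractions. All fractions lay far above all inputs, and the spread within each group was small. The mean rose from 19.9 ± 2.58 to 205 ± 20.2 CPM (n = 5, ± SD), with a fitted change of 3.36 ± 0.11 on the log2 scale (± SE, edgeR adjusted p = 7.43e-11), or 10.3-fold. By log2 fold change Mdk ranked 29 from the top among the 17672 tested genes.

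Ptn (ENSMUSG00000029838, chromosome 6, 36714929 to 36810220) measured 155, 141, 193, 147 and 186 CPM across the inputs and 412, 468, 438, 387 and 442 CPM across the fractions. The groups were apart in every library. The mean rose from 164 ± 23.3 to 429 ± 30.8 CPM (n = 5, ± SD), with a fitted change of 1.38 ± 0.10 on the log2 scale (± SE, edgeR adjusted p = 4.42e-08), or 2.61-fold. The log2 ratio of Mdk to Ptn moved from -3.05 ± 0.19 to -1.07 ± 0.22, a difference of 1.98 ± 0.13 (exact permutation p = 0.00794, adjusted p = 0.0185). Relative to Ptn, Mdk was 3.93-fold higher in the fraction. Precursors of oligodendrocytes are also known to express Ptn. Of their 8 markers 6 fell and 2 rose, Olig1 (1.58) and Olig2 (0.86), with a middle log2 fold change of -2.49. Their summed level was 515 to 586 CPM in the input and 806 to 1139 CPM in the fraction. Olig1 alone rose from 245 ± 23.6 to 734 ± 121 CPM and made up most of the sum in the fraction. The part of these precursors in the level of Ptn was not tested.

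**Figure D4:**
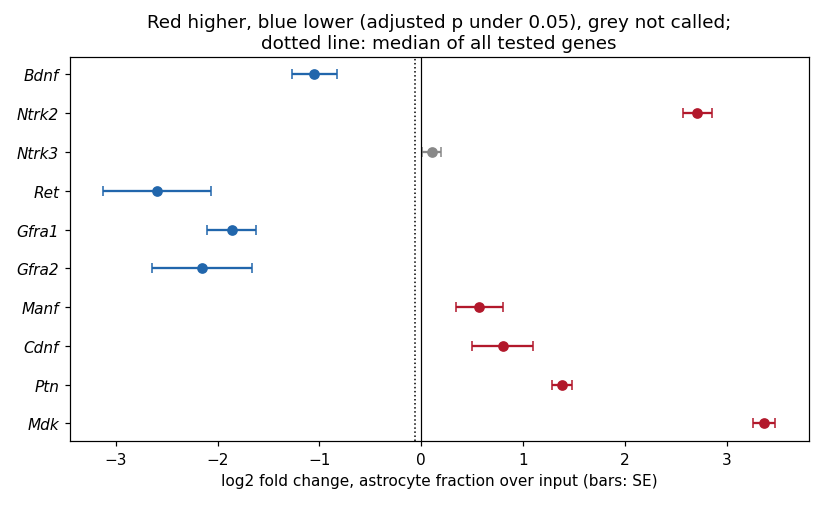
Log2 fold change of each member, astrocyte fraction over input, with its SE as a bar, in red where called higher, blue where called lower and grey where not called. Mdk (3.36) and Ntrk2 (2.71) lie at the high end, Ret (-2.59) at the low end, and Ntrk3 (0.10) near 0 and near the dotted line at the middle value of all tested genes (-0.06).

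Of 13 measured receptor and binding partner genes of pleiotrophin and midkine, 9 rose, 3 fell and 1 did not pass the test, against 33.1% higher and 37.5% lower over all tested genes, with a middle log2 fold change of 1.13. Sdc4, the gene of syndecan-4, rose from 88.7 ± 8.82 to 826 ± 64.6 CPM (log2 fold change 3.22 ± 0.08, edgeR adjusted p = 5.08e-11). The chondroitin sulfate proteoglycan gene Cspg5 (1.46), the neuropilin gene Nrp1 (1.78) and the integrin subunit gene Itgav (1.98) were higher as well. The kinase genes moved the other way. Alk fell from 15.9 ± 3.71 to 2.15 ± 1.19 CPM (-2.70 ± 0.60, adjusted p = 4.05e-06) and its relative Ltk was lower too (-1.96 ± 0.38, adjusted p = 0.00024). Ptprz1, the receptor phosphatase gene, rose from 183 ± 37.7 to 353 ± 96.1 CPM (0.95 ± 0.23, adjusted p = 0.00111).

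**Figure D5:**
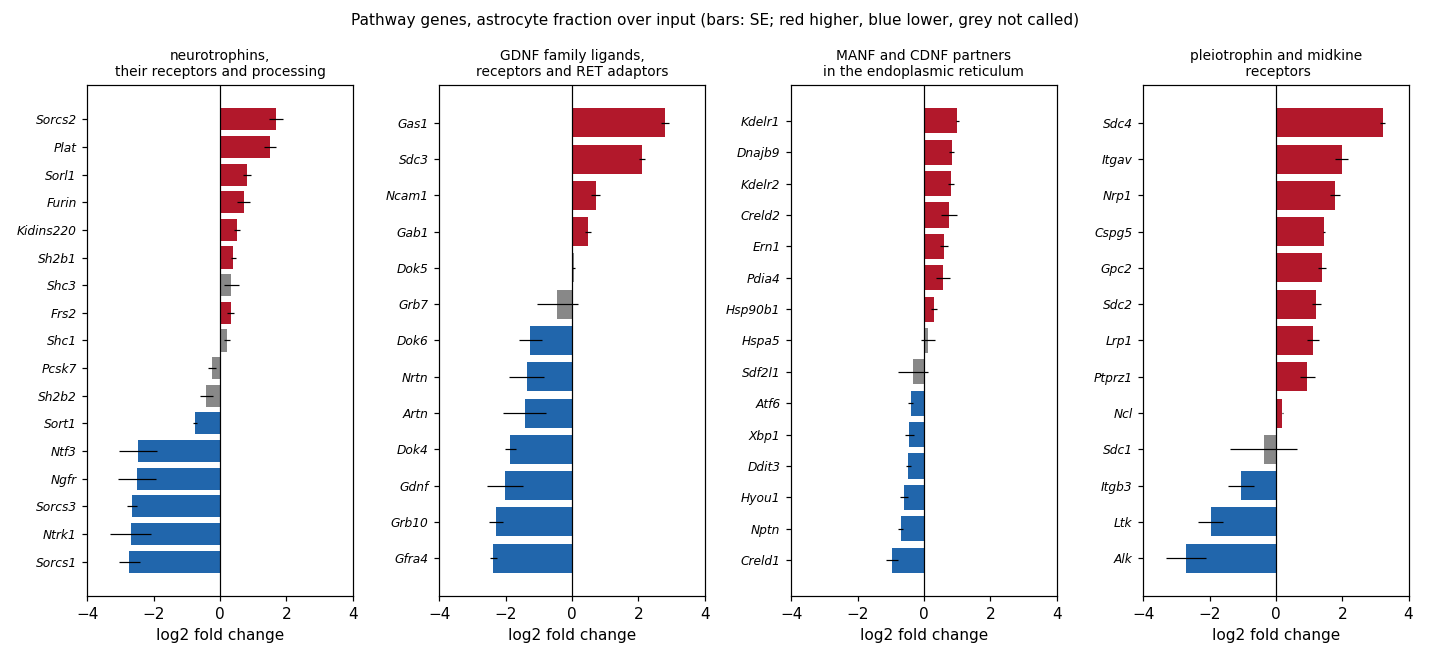
Log2 fold change, astrocyte fraction over input, of genes of the 4 pathway lists, as bars with the SE as a line, red where called higher, blue where lower and grey where not called. Gdnf, Gfra4 and Alk lie on the low side, while Gas1 (2.81), Sdc3 (2.10) and Sdc4 (3.22) lie on the high side.

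Per kilobase of annotated exon, the order of the members differed between the groups. In the astrocyte fraction Ntrk2 (216 ± 38.6 CPM per kb, SD, n = 5), Mdk (155 ± 15.3) and Ptn (125 ± 8.99) were highest, and neighbours in that order overlapped between libraries. Manf followed at 22.5 ± 8.23 CPM per kb, apart from both its neighbours. Ret (5.29 ± 3.03), Gfra1 (3.33 ± 0.914), Gfra2 (3.01 ± 1.58) and Ntrk3 (2.88 ± 0.331) overlapped. Bdnf (1.36 ± 0.306), below Ntrk3 in every library, overlapped with Cdnf (0.887 ± 0.425). In the input Ptn was highest (47.9 ± 6.79 CPM per kb), followed by Ntrk2 (33.1 ± 3.59) and Ret (32 ± 16.1), of which Ptn and Ntrk2 did not overlap while Ret overlapped both. Manf (15.2 ± 2.87), Mdk (15 ± 1.95), Gfra2 (14.2 ± 3.44) and Gfra1 (12.5 ± 2.06) overlapped, then came Bdnf (2.80 ± 0.635) with Ntrk3 (2.69 ± 0.205), and Cdnf was lowest (0.465 ± 0.107). Exon lengths join all annotated transcripts of a gene, 19292 bases for Ntrk2 and 30170 for Ntrk3, so levels per length are low estimates where short forms are used.

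The genes closest in pattern to Ntrk2 and Ptn, the 2 members of highest mean CPM over all 10 libraries, were found by Pearson correlation of log2 CPM over these libraries. For Ntrk2 they were Slc14a1 (r = 0.9998), Plpp3 (0.9998) and Pgm2 (0.9994). For Ptn they were Nfib (0.9971), Sdhc (0.9957) and Nudt3 (0.9955). The libraries fall into 2 groups that differ, and these values, given as a description with no test, include that shared difference.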

How the data were processed

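PolyA RNA was sequenced from 10 ventral midbrain libraries, each made from 25 ng of total RNA per the labels. The authors deposited, per the file headers, raw expected counts per gene and normalized log2 values. CASAVA 1.8, DESeq and mm10 appear, with no role, in the submitters' processing notes. No source used here gives the aligner or the strand setting.

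Expected counts were rounded and tested over the whole table with edgeR 4.0.16 (R 4.3.3): filterByExpr with a minimum count of 10, TMM scaling, the robust quasi-likelihood test, a prior count of 2 and Benjamini-Hochberg adjustment over all 17672 tested genes. CPM use TMM-scaled library sizes. SE are of the difference of mean log2 CPM. Ratios add 0.5 counts to each gene. Exons come from GENCODE M21. Alternatives used DESeq2 1.42.0, limma 3.58.1 on the deposited log2 values, other scalings and filters, left-out libraries and the title number as a block. The main tests are unpaired. Title numbers were judged to pair libraries, whose deviations from the group means correlated at 0.189 to 0.493, although 982 correlated better with another number. Within groups, log2 CPM correlated at 0.921 to 0.990.

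All members are named. From each pathway list the genes of smallest adjusted p are named, up to 4 in its majority direction (the lower one in a tie) and 2 in the other, with the ligands. Ptprz1, Hspa5, Sorl1, Olig1, Olig2, Aldh1a1, Th, Hyou1, Ddit3, Xbp1, Atf6, Creld2, Pdia4 and Hsp90b1 were named after their values were seen. Members and lists were chosen with earlier results of these data known. One gene of the neurotrophin list is not reported here by name.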

Additional observations from a re-analysis of the deposited data

Results flagged for a closer look

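In 4 of 34 sets of 5 libraries (log2 CPM of each member and each log2 ratio, by group), 1 library lay far from the rest by Dixon's criterion, which chance meets in about 1 of 20 sets. Gfra1 was at a log2 CPM of 3.24 in the astrocyte fraction library 92, against 4.27 in the nearest library, and at 6.47 in the input library 981, against 6.02. Manf was at 7.02 in the astrocyte fraction library 976, against 6.25. Ntrk3 was at 6.52 in the input library 88, against 6.34.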

How the results depend on the processing

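Bdnf, Ntrk2, Gfra1, Gfra2, Ret, Ptn and Mdk kept direction and call under all 18 alternatives run, whereas Manf and Cdnf lost their calls as given above. With total count scaling the median log2 fold change of all tested genes moved from -0.06 to -0.34. Under that scaling 3 members and 4 genes of the MANF and CDNF list were higher, and 8 endothelial markers were lower. Ntrk3 (-0.19), Dok5 (-0.23), Hspa5 (-0.16), Ncl (-0.10) and Shc1 (-0.06) turned negative. With a mean of at least 5 CPM, where fewer genes are tested and Cdnf is not, 3 members were higher, 4 GDNF list genes, 1 pleiotrophin and midkine receptor gene and 2 mural and fibroblast markers were lower, and Dok5 was at -0.04. With the replicate block no member changed its call, 5 choroid plexus and ependymal markers were higher and 3 lower, and the sign-flip permutation of the 5 within-number differences, whose smallest p is 0.0625, gave Bdnf/Ntrk2 (-3.73), Mdk/Ptn (1.98) and Ntrk2/Ntrk3 (2.60) an adjusted p of 0.109. Without the numbers 976 and 982, where 3 against 3 libraries allow no p below 0.1, these ratios were -3.74, 2.0 and 2.63, while 5 choroid plexus and ependymal markers were higher and 1 lower, 2 endothelial markers were lower and Hspa5 was at -0.01. Leaving out 1 library at a time, 3 to 6 members were higher (3 without the input 88 or 981) and 4 lower, 2 to 5 endothelial markers were lower (2 without the astrocyte fraction library 976, 3 without the astrocyte fraction library 88 or 981 or the input 92), Gfra2/Ret ran from -0.11 (without the astrocyte fraction library 976) to 0.69 and was -0.05 without the input 92, and Hspa5 ran from -0.05 (without the astrocyte fraction library 976) to 0.23. The cause was not tested except where named. Depth limits Gdnf, Artn, Ntf3 and, in the astrocyte fraction library 92, Bdnf, Gfra1, Gfra2, Nrtn and Cdnf.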
